A study of Homo sapiens with 2 samples.

Results

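The peroxiredoxins, thioredoxins and superoxide dismutases were examined in PC-3 cells exposed to Riccardin D (RD). These 10 genes are PRDX1 to PRDX6, TXN, TXN2, SOD1 and SOD2, and they were chosen by gene family. A gene was read through the array probe sets that the platform annotation paired with that gene alone, which gave 9 of the 10 genes (16 probe sets) among 19775 genes in all. PRDX5 was paired with no such probe set and was not analysed here. PC-3 is an established line of androgen-independent human prostate cancer cells. RD is a plant product of liverwort origin with a macrocyclic bisbibenzyl ring. Cells received 10 µmol/L RD for 24 h or, as controls, no RD, with 1 Affymetrix HG-U133 Plus 2.0 array for each condition. The dose is the one the study gives for its array table, since the sample labels name none. The protocol gives the control DMSO vehicle, whereas its source name calls it untreated.

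These proteins remove reactive oxygen species in successive steps. Superoxide dismutases convert superoxide to hydrogen peroxide, SOD1 mainly in the cytosol and SOD2 in the mitochondrial matrix. Peroxiredoxins then reduce the peroxide through a reactive cysteine. PRDX1, PRDX2, PRDX3 and PRDX4 are the typical 2-Cys members, and PRDX6 is the 1-Cys member. Thioredoxin returns electrons to oxidised peroxiredoxins, TXN in the cytosol and TXN2 in mitochondria, and is itself reduced by thioredoxin reductase with NADPH. Sulfiredoxin rescues 2-Cys peroxiredoxins that have been overoxidised. By main location, PRDX1, PRDX2, PRDX6, TXN and SOD1 were grouped as cytosolic, PRDX3, TXN2 and SOD2 as mitochondrial, and PRDX4 as a protein of the endoplasmic reticulum (ER).

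The deposited values were MAS5 signals, which are linear intensities that the authors scaled per array. After trimming 2% of probe sets at either end, the mean signals of the control and RD arrays were 495.8 and 495.9. Genes were counted as higher or lower where RD and control signals were 2-fold or more apart and the larger one reached 66.9, the median of all signals, which is named the floor here. The brightest probe set stood for its gene. With 1 array per condition no test was possible, and precision is limited by that number of arrays. In place of a replicate error stood the scatter of log2 differences (RD minus control) among probe sets that read 1 gene. The SD of this scatter was 0.34 among probe sets reaching 377.4, the 75th percentile of all signals, and 0.76 among all those reaching the floor. This scatter covers probe noise on the same pair of arrays and leaves out variation between cultures, so a difference beyond it is not shown to exceed that of repeated cultures. Transcript signals in bulk RNA do not separate fewer expressing cells from less RNA per cell. As for the cell type, the epithelial keratin gene KRT18 had signals of 10224.2 and 15416.6 on the control and RD arrays. KRT8 had signals of 113.8 and 159.3, and EPCAM, a further epithelial marker, lay under the floor on both arrays. Of 3 probe sets of KLK3, a gene driven by the androgen receptor, 1 reached the floor. Of 15 probe sets of leukocyte, endothelial and fibroblast markers (PTPRC, PECAM1 and COL1A1), 5 did, with signals from 0.5 to 370.6 and sums of 990.5 in control and 722.4 after RD. Their part in the results was not tested.

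PRDX2 and PRDX3 had at least 2-fold lower signals after RD by their brightest probe sets, and no member was at least 2-fold higher. Of the 9 members, all of which reached the 75th percentile on both arrays by their brightest probe sets, 8 had a lower signal and 1, SOD2, had a higher one, and quantile normalization put TXN among the higher ones too. All 5 measured peroxiredoxins were among the lower ones, and the median log2 difference was -0.41 over these 5 and -0.33 over the 9 members. Over all 12818 genes at or above the floor the median was -0.0022, with 13.3% counted as lower and 12.1% as higher, and of those at or above the 75th percentile 10.9% were lower. Against that background, the 2 lower members of 9 are a share of a similar order, and the small number of members leaves this share imprecise.

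**Figure D1:**
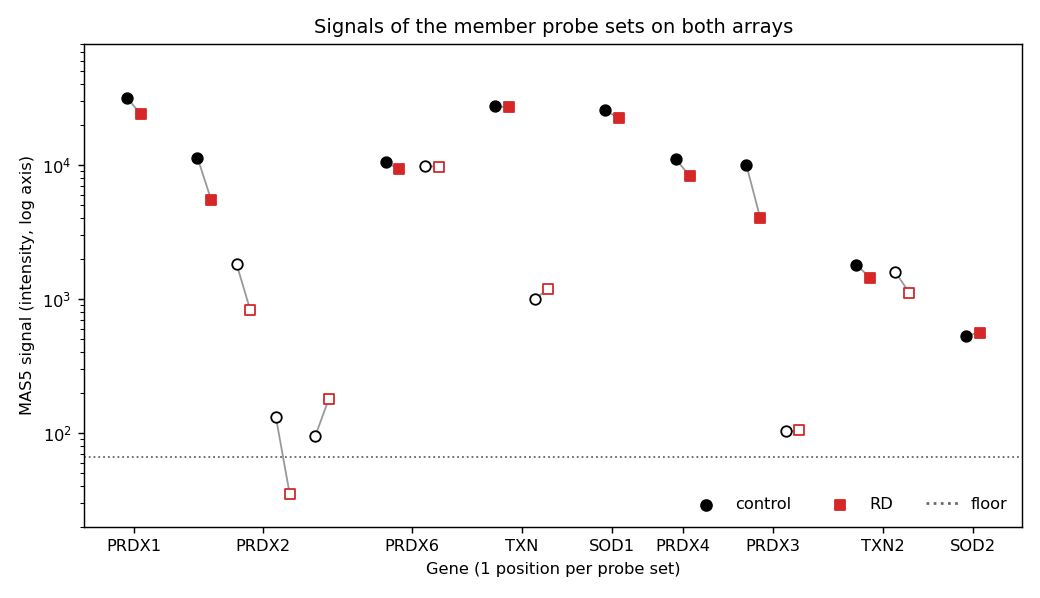
MAS5 signal (vertical, log axis) of each of the 16 probe sets of the 9 measured members, on the control array (black circles) and the RD array (red squares), joined by a line. Filled symbols mark the brightest probe set of each gene, open symbols its others, and the dotted line the floor of 66.9. Among filled symbols the widest gaps are those of PRDX3 (from 9946.2 to 4030.8) and PRDX2 (from 11367.1 to 5492.5), and levels of different probe sets are not comparable with each other.

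PRDX3, the peroxiredoxin of the mitochondrial matrix, had the lowest difference of the family by brightest probe sets. The signal of its brightest probe set was 9946.2 in control cells and 4030.8 after RD, which is 2.47-fold lower, a log2 difference of -1.30. Of 8094 genes whose signal reached the 75th percentile, 5.93% were as low or lower. A second, dim probe set of PRDX3 did not share this difference, with signals of 102.8 and 104.6. The median over both probe sets was -0.64, which falls short of 2-fold and lies above the -1.10 of PRDX2 by the same measure.

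PRDX2, a cytosolic 2-Cys peroxiredoxin that is abundant in red blood cells, was 2.07-fold lower. Its brightest probe set read 11367.1 in control cells and 5492.5 after RD, a log2 difference of -1.05. Among the genes at or above the 75th percentile, 10.1% were as low or lower. A second bright probe set gave a like difference, from 1814.4 to 821.8 (2.21-fold lower). The remaining 2 were dim and pointed in opposite directions. One was at least 1.97-fold lower, from 131.5 to a signal of 35.4 under the floor, and the other was 1.91-fold higher, from 94.4 to 179.9, with a name suffix that marks sequence shared between genes. The median over the 4 probe sets was -1.10.

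The promoter windows of these lower members are shown beside those of TXNRD1, which encodes the reductase of TXN and had a higher signal (described further on). Each runs from 250 bases before to 50 bases after a transcription start in RefSeq (GRCh38.p14), on the strand of the gene and from 5′ to 3′. Capitals of 9 letters mark the core of the antioxidant response element, TGACNNNGC, which NRF2 is known to bind, and capitals of 6 letters mark the GC box GGGCGG, both searched on either strand. In the 4 windows shown these matches overlapped no other motif that was searched.
PRDX2, chr19:12801751-12802050, minus strand: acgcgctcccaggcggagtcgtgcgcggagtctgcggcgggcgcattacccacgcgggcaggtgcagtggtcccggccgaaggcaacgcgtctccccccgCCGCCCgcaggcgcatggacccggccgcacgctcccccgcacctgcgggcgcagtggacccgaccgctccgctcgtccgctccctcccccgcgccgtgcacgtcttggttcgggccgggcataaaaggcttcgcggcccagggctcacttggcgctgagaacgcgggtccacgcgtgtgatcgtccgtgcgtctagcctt
PRDX3, chr10:119178763-119179062, minus strand: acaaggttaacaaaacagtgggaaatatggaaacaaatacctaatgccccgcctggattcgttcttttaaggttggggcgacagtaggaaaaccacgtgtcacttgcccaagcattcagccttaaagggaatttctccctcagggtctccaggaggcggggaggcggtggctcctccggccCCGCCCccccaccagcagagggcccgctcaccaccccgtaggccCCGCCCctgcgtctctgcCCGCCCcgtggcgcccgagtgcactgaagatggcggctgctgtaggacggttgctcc
TXNRD1, chr12:104215529-104215828, plus strand: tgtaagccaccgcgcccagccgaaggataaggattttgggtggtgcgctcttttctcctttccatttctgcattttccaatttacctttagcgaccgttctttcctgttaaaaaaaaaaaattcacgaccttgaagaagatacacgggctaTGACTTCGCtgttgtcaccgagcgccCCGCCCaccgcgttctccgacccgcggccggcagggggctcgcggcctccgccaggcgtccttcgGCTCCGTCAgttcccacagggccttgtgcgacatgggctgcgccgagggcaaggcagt
TXNRD1, chr12:104286782-104287081, plus strand: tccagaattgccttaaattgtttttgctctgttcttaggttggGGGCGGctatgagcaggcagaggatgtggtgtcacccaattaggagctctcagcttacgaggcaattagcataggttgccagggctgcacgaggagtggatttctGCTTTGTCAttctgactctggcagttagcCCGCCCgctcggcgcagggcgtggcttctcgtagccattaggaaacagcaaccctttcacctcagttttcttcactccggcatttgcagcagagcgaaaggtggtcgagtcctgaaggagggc

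The PRDX2 window held 1 GC box and the PRDX3 window held 3, and neither held a match to TGACNNNGC. The upstream window of TXNRD1 held 2 such matches, the first of them 99 to 91 bases before the start, and the downstream window held 1, at 102 to 94 bases before it. The window of GCLM, which was higher, held 1 match, and those of SRXN1, also higher, and TXNRD2, which was lower, held none. Among the partner genes described further on, only TXNRD1, TXNRD2, SRXN1 and GCLM were searched. GLRX, GCLC, SESN2 and GSS were not, so the matches do not describe the higher or lower partner genes as a group. Windows were at hand for 6 of the 10 members (PRDX2, PRDX3, PRDX4, PRDX5, TXN and SOD2). All 6 had a GC box, which 45.0% of 35116 windows of this length contain, and none had a TGACNNNGC match, which 13.3% contain. PRDX5 had 2 windows and SOD2 had 4, and a match in any window counted for the gene. The percentages are of single windows, so they are not directly comparable with counts of genes. The CHOP-ATF element TGATGNAAT and the E2F forms TTTGGCGC and TTTCGCGC were in none of the 6 and in 0.991%, 0.652% and 0.515% of all windows. CCAAT was, among these 6, in windows of SOD2 only and in 34.6% of all. These are matches of letters, and no binding was measured.

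The other peroxiredoxins differed less. PRDX1, the major cytosolic 2-Cys peroxiredoxin, read 31892.0 in control cells and 23989.8 after RD, 1.33-fold lower. PRDX4, which acts in the ER and can feed oxidising equivalents into disulfide formation, read 11001.1 and 8335.5, 1.32-fold lower. Each has 1 probe set, and their log2 differences of -0.41 and -0.40 lay just beyond 1 SD of the scatter between bright probe sets. PRDX6, the 1-Cys enzyme that uses glutathione instead of thioredoxin, read 10495.3 and 9295.8 by 1 probe set and 9792.1 and 9731.4 by its other. Both of its differences, -0.18 and -0.0090, were within that SD. By brightest probe sets, the difference of PRDX3 was lower than that of PRDX1 by 0.89 on the log2 scale, and that of PRDX2 by 0.64. The SD for the difference between a pair of genes from the same scatter was 0.48. The contrast of PRDX3 depended on the probe set, since the median over its 2 probe sets was -0.64, nearer to the -0.41 of PRDX1.

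**Figure D2:**
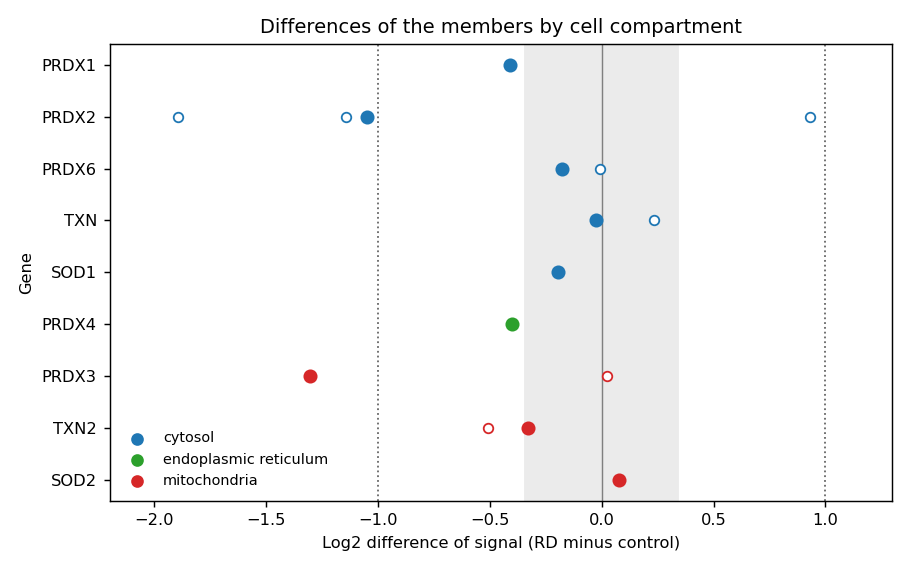
Log2 difference of signal (RD minus control, horizontal) of every probe set of the 9 measured members (vertical), coloured by compartment. Filled circles are the brightest probe set of each gene and open circles its others, the grey band is 1 SD (0.34) either side of 0, and dotted lines mark 2-fold. Filled circles of PRDX2 (-1.05) and PRDX3 (-1.30) lie beyond 2-fold, and 1 probe set of PRDX3 lies at 0.025.

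Both thioredoxin genes stayed well within 2-fold. TXN read 27451.8 in control cells and 26946.4 after RD, a log2 difference of -0.03 that became 0.0041 after quantile normalization. Its second probe set read 1006.7 and 1184.0, a difference of 0.23, so the direction for TXN depended on the probe set and the scaling. TXN2, the mitochondrial thioredoxin, read 1808.9 and 1441.4 (-0.33) by its brightest probe set and 1584.9 and 1115.0 (-0.51) by the other. Both probe sets of TXN2 were thus lower, by 1.25-fold and 1.42-fold.

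The superoxide dismutases also differed little by their own probe sets. SOD1, the copper-zinc enzyme, read 25579.3 in control cells and 22330.9 after RD (-0.20). SOD2, the manganese enzyme, whose gene is a known target of NF-kB, read 532.3 and 562.0 (0.08). This single SOD2 probe set is not the only one that may read the gene. A further 4 were paired with both SOD2 and the overlapping transcript SOD2-OT1, and their signals cannot be assigned to either. Of these, 3 were above the floor and higher after RD, from 662.1 to 1121.2, from 705.9 to 956.4 and from 494.3 to 630.0, which is 1.69-fold, 1.35-fold and 1.27-fold. The fourth lay under the floor, at 45.2 and 42.8.

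**Figure D3:**
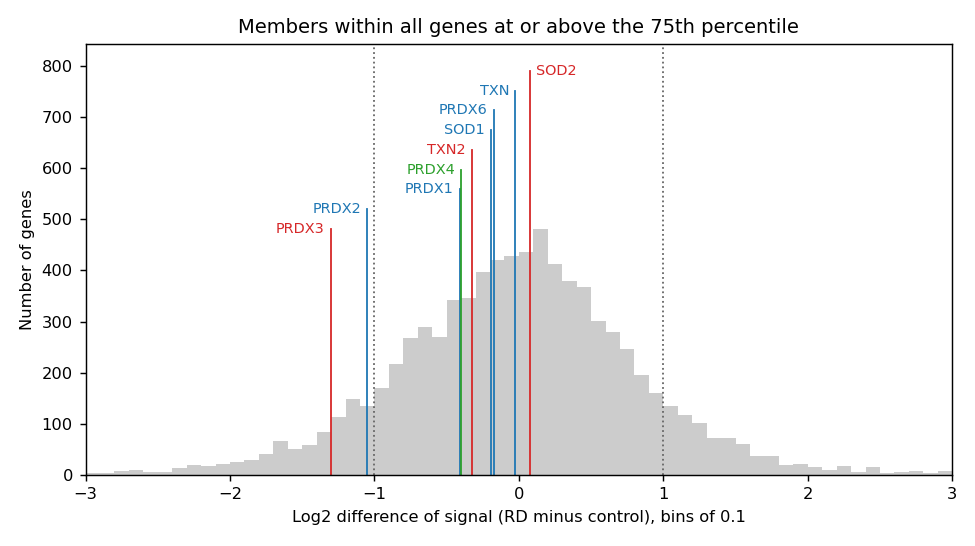
Number of genes (vertical) by log2 difference of signal (RD minus control, horizontal, bins of 0.1) over 8094 genes whose signal reached the 75th percentile, with each member marked by a line coloured by compartment as blue for cytosol, green for ER and red for mitochondria. The line heights carry no value, dotted lines mark 2-fold, and 57 genes beyond 3 in size are not drawn. PRDX3 and PRDX2 lie in the lower tail, with 5.93% and 10.1% of genes as low or lower, and TXN and SOD2 lie near the middle.

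By brightest probe sets, both the cytosolic and the mitochondrial group held a member past 2-fold and a member near 0. The median log2 difference was -0.20 over the 5 cytosolic members and -0.33 over the 3 mitochondrial members, and PRDX4, the single ER member, stood at -0.40. These medians rest on few genes each. In the cytosol the differences ran from -1.05 for PRDX2 to -0.03 for TXN, and in mitochondria from -1.30 for PRDX3 to 0.08 for SOD2. Both mitochondrial ends depended on the probe set. PRDX3 stood at -0.64 by the median of its probe sets. With the probe sets shared with SOD2-OT1 admitted, SOD2 stood at 0.76 by the brightest of them. The others of these above the floor stood at 0.44 and 0.35. With 9 genes on 2 arrays, a difference between compartments could not be tested.

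By their brightest probe sets, the thioredoxin reductases of the cytosol and of mitochondria had differences of opposite sign. TXNRD1, the cytosolic thioredoxin reductase, read 17667.9 in control cells and 38049.7 after RD, 2.15-fold higher. TXNRD2, the mitochondrial reductase, read 726.1 and 261.8, 2.77-fold lower. The log2 differences of these reductases were apart by 2.58. The SD of 0.48 for a pair of genes comes from genes with several bright probe sets, and neither reductase has several. A second TXNRD2 probe set was dim and went the other way, from 53.8 to 91.8, at least 1.37-fold higher. The log2 differences of the TXNRD2 probe sets were thus -1.47 and, without regard to the floor, 0.77. The second TXNRD1 probe set was under the floor on both arrays.

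SRXN1, the sulfiredoxin that reactivates overoxidised 2-Cys peroxiredoxins, was 3.45-fold higher, from 1672.4 to 5772.9. SESN2, a stress-induced sestrin that restrains mTORC1, was 3.57-fold higher, from 1003.5 to 3584.0, and 5.41-fold higher by its other probe set. SESN1 stood at 0.943 of control. TXNDC17, a thioredoxin-like protein of the cytosol, was 1.80-fold lower. TXNIP, which binds and inhibits thioredoxin, was counted as higher by signals of 25.7 and 101.7, but at least 1.52-fold only against the floor. Its other probe sets read 80.4 and 17.8, and 43.6 and 41.6, so no direction could be given for TXNIP. Of 10 genes in this list, 8 reached the floor. Among these 8, 4 (TXNIP among them) were counted as higher and 1 as lower, with a median log2 difference of 0.79. Over all genes at or above the floor, 12.1% were counted as higher and 13.3% as lower, with a median of -0.0022. These few genes leave the shares of the list imprecise. With each gene read by the median of its probe sets, the median of the list was 0.080 and none was counted as lower.

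Among 13 genes of the glutathione route at or above the floor (of 14 listed), 4 were counted as higher and 1 as lower, with a median of 0.19. Over all genes at or above the floor, the shares were 12.1% higher and 13.3% lower, and the median was -0.0022. The largest measured differences were in GCLM and GCLC, the subunits of the rate-limiting enzyme of glutathione synthesis, and in the glutaredoxin GLRX. GCLM read 4669.0 in control cells and 25204.8 after RD, 5.40-fold higher, and its other 2 probe sets were 7.06-fold and 5.88-fold higher. GLRX read 5755.2 and 27147.2, 4.72-fold higher. GCLC read 1295.8 and 5681.3, 4.38-fold higher, and its other probe sets were 2.97-fold and, against the floor, at least 2.51-fold higher. GSS, the enzyme of the second step of glutathione synthesis, went the other way at 2.30-fold lower, from 7665.5 to 3331.4. Its other probe set was 1.89-fold lower, short of 2-fold. GLRX5, a mitochondrial glutaredoxin of iron-sulfur cluster assembly, was 1.82-fold lower. GPX2, a glutathione peroxidase of gut epithelium, was counted as higher from a control signal of 15.7, but only at least 1.63-fold against the floor. GPX7, an ER peroxidase, was at least 1.12-fold lower.

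**Figure D4:**
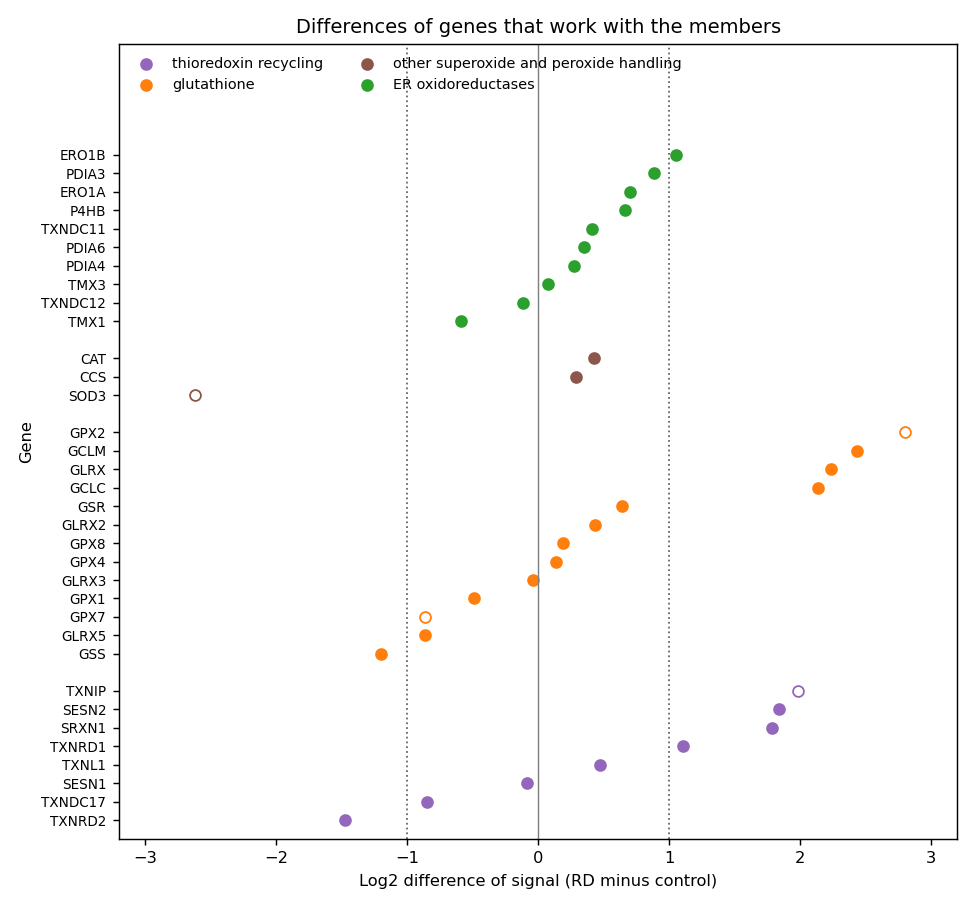
Log2 difference of signal (RD minus control, horizontal) of each listed partner gene that reached the floor, coloured by list. Open circles have 1 signal under the floor, so that their plotted difference is not a bound, and dotted lines mark 2-fold. GCLM, GLRX, GCLC, SESN2, SRXN1, TXNRD1 and ERO1B lie beyond 2-fold to the right with both signals above the floor, and TXNRD2 and GSS beyond it to the left.

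Of the other genes that handle superoxide and peroxide, CAT (catalase, the peroxide-degrading enzyme of peroxisomes) was 1.35-fold higher, from 8368.8 to 11269.3, and CCS, the copper chaperone of SOD1, was 1.22-fold higher. SOD3, the secreted dismutase, was counted as lower from a control signal of 73.2, which is at least 1.09-fold against the floor. The ER oxidoreductases, which carry thioredoxin folds or, as ERO1A and ERO1B do, oxidise those that carry them, set the surroundings of PRDX4. Of 10 such genes, 1 was counted as higher and none as lower, with a median of 0.38. That share of higher genes is near the 12.1% over all genes, of which 13.3% were counted as lower. ERO1B was 2.07-fold higher, from 281.6 to 583.6, and 6.0-fold higher by its other probe set. PDIA3 was 1.85-fold higher by its brightest probe set and 1.44-fold higher by another, while a further one read 435.2 and 434.2. The probe sets of ERO1A disagreed, from 2498.2 to 4053.6 (1.62-fold higher) by the brightest, from 1190.6 to 794.1 (lower) by another and from 440.3 to 470.4 by the third. At the low end, TMX1 was 1.51-fold lower, TXNDC12 stood at 0.923 of control and TMX3 at 1.05. The PRDX4 signal itself stood at 0.758 of control.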

How the data were processed

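Total RNA of PC-3 cells was labelled and hybridised to Affymetrix HG-U133 Plus 2.0 arrays, 1 per condition. The authors deposited linear intensities. The submitters' processing notes name MAS5 as the tool that made them, and its version and scaling target are not stated in the labels or the study's methods. From these, log2 differences (RD minus control) were computed without offset or further scaling. Of 54613 probe sets, 41091 were paired with 1 gene, 1801 with several (not used) and 11721 were not named here. The RefSeq table of GRCh38.p14 changed no symbol.

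No design allowed a test, and each list was described by counts and medians. All members were named with every probe set, and in each partner list every gene past 2-fold and up to 3 genes at each end. The members, lists and rules were chosen with earlier results of these data known. Alternatives varied the scaling, the offset (17.1, the 25th percentile), the probe set, the floor and the threshold. After the data were examined, admitting the probe sets shared by SOD2 and SOD2-OT1 was added. The scripts were tested on simulated data. Promoter windows came from RefSeq, and motifs were searched on both strands. Computations were run in Python 3.11.15 with pandas 2.3.3 and numpy 2.4.6, and plots were drawn with matplotlib 3.10.9.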

Additional observations from a re-analysis of the deposited data

How the results depend on the processing

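Scaling by median centring or quantile normalization, the offset and raising dim signals to the floor moved no member by more than the SD of 0.34 between probe sets. Over 9 alternatives each (8 for PRDX6), the log2 difference kept its sign for every measured member except TXN, which kept it in 6. Most of these alternatives could not change a sign. The brightest probe set of each member reached the 75th percentile, so the changes of floor left its value as it was. An offset cannot turn a sign, and admitting shared probe sets concerned SOD2 only. For members with 1 probe set, the choice of probe set changed nothing either. The count of kept signs therefore says little about robustness. PRDX2 ranged from -1.10 to -1.02, PRDX3 from -1.34 to -0.64, and SOD2 from 0.04 to 0.76. The last value is that of the brightest probe set shared with SOD2-OT1. When each gene was read by the median of its probe sets, 1 member was lower instead of 2, as PRDX3 stood at -0.64, and the thioredoxin recycling list had 0 lower genes and a median of 0.080. Without probe sets whose suffix marks shared sequence, which left 5 genes of that list, 2 were higher and 0 lower, and 0 of the other peroxide genes were lower. That last count was also 0 with a floor at the 75th percentile and with dim signals raised to the floor. Without a floor, 2 glutathione genes were lower. At 1.5-fold, 2 recycling genes and 3 glutathione genes were lower, and 4 ER oxidoreductases were higher and 1 lower. At 3-fold, 0 members, 0 recycling genes and 0 glutathione genes were lower and 0 ER oxidoreductases were higher. Over all genes, 3321 were higher and 3566 lower without a floor, 802 and 881 with the floor at the 75th percentile, 2926 and 3169 at 1.5-fold, and 668 and 775 at 3-fold. Apart from the floors, the thresholds and the smaller number of genes, the cause was not tested. No paired analysis was possible because each condition had 1 array. Signals under the floor limit the dim probe sets of PRDX2, TXNRD2 and TXNIP.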
